A study of Arabidopsis thaliana with 12 samples.

Results

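The introns described here were the short plain introns of the splicing tables: every listed feature of the class plain intron, with no annotated splicing event assigned to it, and with a length of 85 nt or less. The rule found 813 of 6244 listed features when dark-grown rrc1-3 was set against Col-0, 816 of 6003 when both genotypes had received red light, and 193 of 843 when red light was set against dark within rrc1-3. Together these were 1581 different introns of 10388 listed features. They lay in 715, 757 and 162 genes of the 3 tables, were 79 nt long in the median of each table, and the shortest had 52 nt. A second annotated gene overlapped 9, 9 and 3 of them, and since no strand is given for the counts, reads there may belong to either gene.

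Seedlings of Arabidopsis thaliana were sequenced as rRNA-depleted total RNA in 12 libraries, 3 in each of 4 groups. The groups were rrc1-3 in the dark, rrc1-3 in red light, Col-0 in the dark and Col-0 in red light. Col-0 is the wild type accession, and rrc1-3 is a mutant allele of RRC1, a gene for a serine/arginine-rich-like splicing protein, in the Col-0 background. All seedlings spent 4 days in the dark on MS medium, and the red light groups then were irradiated for 3 h (7 µmol m-2 s-1). The labels do not say whether the libraries of a group came from separate cultures, so the p-values measure only the spread between these libraries. All groups were whole seedlings, so fewer cells of a type and less RNA per cell cannot be told apart. The rrc1-3 libraries of the light response are also those of the genotype comparisons.

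Introns are removed by the spliceosome, which recognises a 5′ splice site that usually begins with GT, a branch point and a 3′ splice site that usually ends with AG. Plant introns are mostly short and rich in T, and across a short intron both splice sites can be recognised as a pair, which is called intron definition. Serine/arginine-rich (SR) proteins help in that recognition, and they are regulated by kinases that add phosphate to them. An intron left in the mRNA is called retained, the most common form of alternative splicing in plants, and a retained coding intron often brings a stop codon into the reading frame.

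Retention was the share of retained molecules at an intron in 1 library: reads across its exon-intron boundaries (mean of both) over those plus reads spliced across it. Differences are in percentage points. The tables list only features with an FDR under 0.05 on the reads of the feature and a difference in retention of at least 3 points, so that all introns described had already been found to differ. The test added here was edgeR's quasi-likelihood test of boundary against spliced reads, which gives a log2 change in the odds of retention, and its Benjamini-Hochberg adjusted p was taken over all listed features of a table. Introns are called at an adjusted p under 0.05, and part of these calls is built in by the listing. Each library held 162764 to 235737 reads on the short introns of the dark comparison, 169739 to 254366 on those of the red light comparison and 58569 to 143836 on those of the light response. The median intron had 81 to 155, 99 to 174 and 178 to 411 reads. Libraries are numbered in the order of the columns. As a check of the labels, another RRC1 intron was retained at 88.6 to 98.4% (dark) and 88.7 to 97.6% (red light) in rrc1-3, against 0.602 to 4.95% over the Col-0 libraries of both conditions.

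The sequences of 12 coding introns are shown because the results below turn on them. They were read 5′ to 3′ along the transcript from RefSeq's Arabidopsis genome at the authors' TAIR10 coordinates, where 99% of the short introns listed in the dark begin with GT and end with AG. The capitals mark the first and last 2 bases and, where there is one, the first stop codon in the reading frame of the upstream exons when the intron is retained. In the comparisons of genotypes the results turn on the introns of ARR11 (chr1:25378489-25378562, minus strand), CaS (chr5:7736995-7737073, minus strand), RRC1 (chr5:8636040-8636123, minus strand), U2AF65b (chr1:22427211-22427278, plus strand), DET1 (chr4:6346615-6346695, plus strand), PORB (chr4:13726422-13726499, plus strand) and BGLU6 (chr1:22222756-22222833, minus strand).
ARR11 intron 2: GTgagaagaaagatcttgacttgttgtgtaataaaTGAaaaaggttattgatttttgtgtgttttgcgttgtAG
CaS intron 5: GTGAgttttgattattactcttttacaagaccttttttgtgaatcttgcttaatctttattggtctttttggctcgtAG
RRC1 intron 14: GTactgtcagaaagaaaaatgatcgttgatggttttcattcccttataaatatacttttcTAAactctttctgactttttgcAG
U2AF65b intron 10: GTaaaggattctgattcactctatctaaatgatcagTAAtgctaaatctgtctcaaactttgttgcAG
DET1 intron 1: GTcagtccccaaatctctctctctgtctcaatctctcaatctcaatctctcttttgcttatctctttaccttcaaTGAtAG
PORB intron 2: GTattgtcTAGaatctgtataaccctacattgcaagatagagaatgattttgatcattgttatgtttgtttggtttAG
BGLU6 intron 8: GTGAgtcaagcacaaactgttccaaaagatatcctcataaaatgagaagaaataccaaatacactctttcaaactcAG

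In the light response of rrc1-3 the results turn on ARR11 and CaS again and on the introns of CA1 (chr3:195338-195405, minus strand), XDH2 (chr4:16629115-16629186, minus strand), PIF7 (chr5:24638996-24639080, minus strand), KAT5 (chr5:19814668-19814751, minus strand) and AT5G57770 (chr5:23401605-23401681, minus strand).
CA1 intron 8: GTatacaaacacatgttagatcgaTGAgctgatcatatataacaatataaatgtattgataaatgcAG
XDH2 intron 4: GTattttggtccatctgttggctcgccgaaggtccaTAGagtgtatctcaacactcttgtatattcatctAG
PIF7 intron 5: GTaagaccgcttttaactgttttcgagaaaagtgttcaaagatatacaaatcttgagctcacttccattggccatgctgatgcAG
KAT5 intron 14: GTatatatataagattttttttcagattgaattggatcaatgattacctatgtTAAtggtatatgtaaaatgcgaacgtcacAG
AT5G57770 intron 5: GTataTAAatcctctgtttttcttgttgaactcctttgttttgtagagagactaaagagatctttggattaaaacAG

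All 12 begin with GT and end with AG. In 11 of them a stop codon is met in frame, and that of CaS and of BGLU6 begins at base 2 of the intron. The PIF7 intron has no in-frame stop, and its length of 85 bases is not a multiple of 3.

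In the dark, retention of the short introns was changed in rrc1-3 about equally often in both directions. Of 813 introns, 419 were higher and 394 lower in rrc1-3 than in Col-0, which is 51.5% higher, beside 47.7% of all listed features. The test called 515 of them (63.35%), beside 53.9% of all listed features. Of these, 267 were higher (25.9% of all listed features) and 248 lower (28% of all listed features). The libraries of the 2 genotypes did not overlap for 566 introns, where 63.2% of all listed features did not overlap. Of these, 308 were higher, beside 30.9%, and 258 lower, beside 32.3%. The median size of a difference was 5.98 points, and 201 introns (115 higher, 86 lower) differed by at least 10 points, a size reached by 25.6% of all listed features. The median retention of the introns higher in rrc1-3 was 11 to 12.8% over the rrc1-3 libraries and 4.00 to 4.31% over the Col-0 libraries. That of the lower introns was 5.17 to 6.06% in rrc1-3 and 11.3 to 12.5% in Col-0. The split depended on the scaling of the reads. TMM scaling gave 307 higher and 182 lower calls, and scaling boundary and spliced reads to their own totals gave 311 and 170. The median log2 change of all listed features was -0.36, and moved to -0.18 and -0.16 with those scalings, and all directions given are relative to 0, not to that median. Of the 813 introns, 423 (52%) had a log2 change above the median of all listed features.

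The intron with the smallest adjusted p among the dark introns named here was intron 1 of PBP1, in the 5′ UTR of a gene for a lectin that binds the beta-glucosidase PYK10. It was retained at 7.91, 9.39 and 10.3% in the rrc1-3 libraries, against 1.68, 1.86 and 1.87% in the Col-0 libraries. The groups stood far apart on a mean of 9705 reads per library, and the log2 odds were higher by 2.45 ± 0.15 (SE; edgeR adjusted p = 5.97e-14). The authors' deposited log2 change in reads of the PBP1 intron body had the opposite sign, at -0.498. Intron 1 of BIL4, a gene of the Bax inhibitor family with a role in brassinosteroid signalling, was retained at 13.5, 12.7 and 13.5% in rrc1-3, against 6.30, 6.03 and 5.79% in Col-0. Intron 1 of AT5G22700, an F-box gene, was retained at 49.5, 62.0 and 68.4% in rrc1-3, against 27.4, 17.4 and 20.7% in Col-0. Both pairs of groups were separate, at adjusted p = 8.23e-06 and 7.26e-06 in edgeR. AT2G05300 and AT5G25040, a gene of the major facilitator family of transporters, had differences of 36.6 and 35.4 points on means of only 20.8 and 29.7 reads per library. The call of AT2G05300 was lost without Col-0 library 2 (adjusted p = 0.102) and with DESeq2 (adjusted p = 0.0584), and that of AT5G25040 with the smaller of the 2 boundaries (adjusted p = 0.079). SEC1A, annotated as secretory 1A, was among the introns with the smallest deposited FDR, which tests the reads of the intron body. Its retention was 51.3 ± 3.31% in rrc1-3 and 48.3 ± 5.54% in Col-0 (SD, n = 3 each), with overlapping libraries and an edgeR adjusted p of 0.572, and without Col-0 library 3 its sign turned (log2 odds -0.009).

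The largest fall among the dark introns with a mean of at least 20 reads was in intron 5 of CaS, the calcium-sensing receptor of the thylakoid membrane. It was retained at 20, 14.4 and 11.96% in rrc1-3, against 56.5, 47.95 and 67.2% in Col-0. No library of one genotype came near those of the other, and the log2 odds fell by 2.90 ± 0.27 (SE; edgeR adjusted p = 1.44e-09). The authors' deposited table lists the gene itself as higher in rrc1-3, by a log2 change of 2.66. ATARD2, an acireductone dioxygenase gene of the methionine salvage cycle, had its 67 nt intron 1 of the 5′ UTR retained at 61.5, 40.8 and 45.8% in rrc1-3, against 98.5, 90.4 and 82.9% in Col-0. In Col-0 this intron was therefore kept in most molecules. An intron of the 5′ UTR of ECIP1 was retained at 31.3, 33.8 and 22.5% in rrc1-3, against 58.5, 67.0 and 64.1% in Col-0. For GLIP7, a lipase gene, retention was 10.53, 17.6 and 5.69% in rrc1-3, against 100, 21.4 and 100% in Col-0, on a mean of 31 reads. The call of GLIP7 was lost without rrc1-3 library 3, Col-0 library 1 or Col-0 library 3 (adjusted p = 0.0624, 0.0553 and 0.12) and with the smaller of the 2 boundaries (adjusted p = 0.166).

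In red light the short introns were more often higher than lower in rrc1-3. Of 816 introns, 510 were higher and 306 lower, which is 62.5% higher beside 59.5% of all listed features. The test called 519 of them, beside 56.9% of all listed features. Of these, 348 were higher and 171 lower, beside 35.9% and 21% of all listed features. The libraries did not overlap for 575 introns, beside 66.6% of all listed features, with 391 higher, beside 42.1%, and 184 lower, beside 24.5%. In all, 192 introns (135 higher, 57 lower) differed by at least 10 points, beside 26.8%. Over all 816 introns, the median retention was 9.52% or more in the rrc1-3 libraries and 7.69 to 8.02% in the Col-0 libraries. This excess of higher introns did not hold under every scaling. TMM scaling gave 304 higher and 196 lower calls, but own totals for boundary and spliced reads turned the split to 192 higher and 237 lower. The median log2 change of all listed features was 0.57 as scaled here, and 0.45 and 0.25 with those scalings, and 463 of the 816 introns (56.7%) lay above the first of these.

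ARR11, a type-B response regulator of cytokinin signalling, had the 2 largest rises in red light, in neighbouring introns. Intron 1 (81 nt) was retained at 69.1, 74.3 and 86.4% in rrc1-3, against 19.9, 20.5 and 25.9% in Col-0. Intron 2 (74 nt), printed above, was retained at 66.5, 73.2 and 76.7% in rrc1-3, against 20.3, 18.0 and 25.8% in Col-0. Both introns were mostly kept in rrc1-3 and mostly removed in Col-0, with log2 odds higher by 3.53 ± 0.31 and 3.23 ± 0.26 (SE; edgeR adjusted p = 5.67e-08 and 1.97e-08). The authors' deposited table lists ARR11 as higher in rrc1-3 by 2.07 on the log2 scale. DI19, a drought-induced zinc finger gene, carried its 81 nt intron in the 3′ UTR at 19.6, 18.8 and 16.8% in rrc1-3, against 7.47, 8.16 and 7.57% in Col-0. With a mean of 11140 reads per library, the groups were clearly apart (edgeR adjusted p = 2.68e-07). Intron 8 of BGLU6, a beta-glucosidase gene, was retained at 22.8, 26.1 and 26.9% in rrc1-3, against 6.86, 6.22 and 8.76% in Col-0. MLO3, a membrane protein gene of the family of the barley MLO gene, was at 88.9 ± 3.47% in rrc1-3 and 69.99 ± 3.496% in Col-0, and OHP, a one-helix protein of the thylakoid, at 7.70 ± 0.67% and 4.22 ± 0.62% (SD, n = 3 each). All 3 rose without overlap of the libraries, at edgeR adjusted p = 1.04e-05, 3.75e-05 and 1.52e-04.

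ATARD2 had the largest fall in red light, in the same intron as in the dark. Its retention was 41.4, 42.9 and 39.6% in rrc1-3, against 97.2, 90.2 and 98.7% in Col-0, and the log2 odds fell by 4.73 ± 0.51 (SE; edgeR adjusted p = 7.97e-07). The ECIP1 intron that fell in the dark was at 40.9 ± 0.41% in rrc1-3 and 62.8 ± 4.07% in Col-0 (SD, n = 3 each; edgeR adjusted p = 1.68e-04). AT1G75290, of the NAD(P)-binding Rossmann-fold family, was at 61.5 ± 2.37% in rrc1-3 and 90.5 ± 4.78% in Col-0, on a mean of 24.2 reads. These 3 introns were kept in most Col-0 molecules and in fewer rrc1-3 molecules. FUS12, a gene for a subunit of the COP9 signalosome, which represses light responses in the dark, had its intron 8 at 3.20, 1.07 and 0.414% in rrc1-3, against 5.06, 5.41 and 4.83% in Col-0. It fell by 1.77 ± 0.39 (SE) in log2 odds, at an edgeR adjusted p of 0.00136. Among genes named as proteasome subunits, AT1G53780 was the other with a listed short intron, at 7.17 ± 0.32% in rrc1-3 and 3.70 ± 1.505% in Col-0 (edgeR adjusted p = 0.0179), a call lost without Col-0 library 1 or 2 (adjusted p = 0.0825 and 0.0589), with DESeq2 (adjusted p = 0.0666) and with own totals (adjusted p = 0.095).

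**Figure D1:**
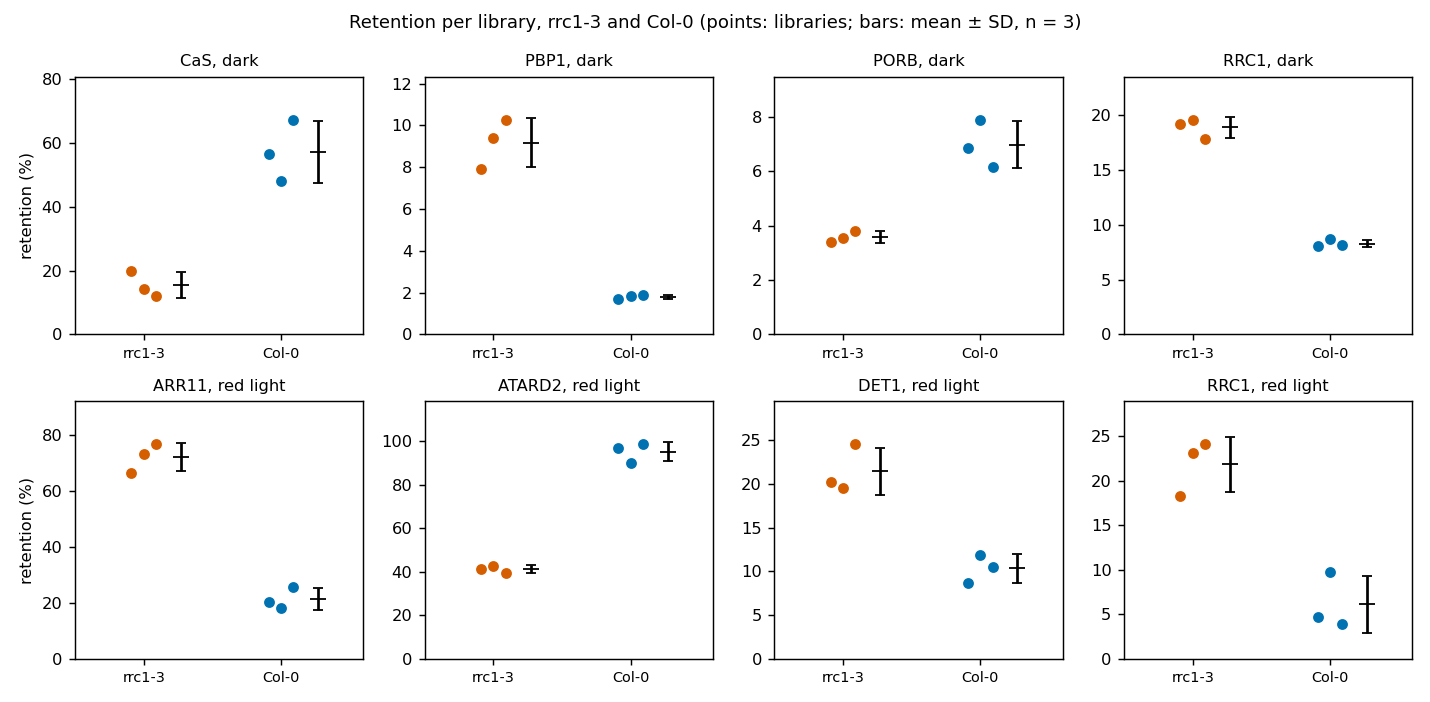
Retention (percent, vertical axis, from 0) per library for 8 named short-intron comparisons, rrc1-3 left and Col-0 right in each panel; points are libraries and bars the mean ± SD of 3. In every panel the libraries of the 2 genotypes are apart, with rrc1-3 lower for CaS, PORB and ATARD2 and higher for PBP1, ARR11, DET1 and RRC1.

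In genes for splicing factors, the direction was the same for every short intron listed. Of the 20 SR protein genes considered, 2 had a short intron listed in the dark and 4 in red light. All of these introns were higher in rrc1-3, and 2 and 3 were called. The introns of SR30 and SR45a were the same in both comparisons. Of all listed features, 47.7% were higher in the dark and 59.5% in red light, and 25.9 and 35.9% were called higher. The gene lists hold few introns, and none was tested as a set. SR30 intron 3 was retained at 7.15, 6.79 and 7.47% in rrc1-3, against 4.27, 4.06 and 1.29% in Col-0 in the dark. In red light it was at 8.85 ± 0.34% in rrc1-3, against 5.65 ± 1.51% in Col-0 (SD, n = 3 each). Both SR30 differences were called (edgeR adjusted p = 0.00113 and 0.0117). SR45a was called in the dark and in red light and SCL33 in red light, with log2 odds higher by 0.76 ± 0.28, 0.86 ± 0.24 and 1.10 ± 0.35 (SE; edgeR adjusted p = 0.0278, 0.00727 and 0.0159). In red light SR34b had 5.82 ± 1.92% in rrc1-3, against 2.56 ± 1.21% in Col-0, and was not called (edgeR adjusted p = 0.0704). With own totals for boundary and spliced reads, no red light call of these 3 remained (edgeR adjusted p = 0.14 for SR30, 0.0578 for SR45a and 0.0697 for SCL33). The dark call of SR45a was lost with DESeq2 (adjusted p = 0.091) and without rrc1-3 library 3 or Col-0 library 2 (adjusted p = 0.13 and 0.156). In red light that of SR30 was lost without Col-0 library 2 (adjusted p = 0.0686) and with the smaller boundary (adjusted p = 0.0648), and that of SCL33 without rrc1-3 library 3, Col-0 library 1 or Col-0 library 3 (adjusted p = 0.063, 0.0516 and 0.067).

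The genes of 39 other splicing factors gave 3 listed short introns in each genotype comparison, all of them higher in rrc1-3 and called. The introns of AFC1 and RRC1 were the same in both comparisons. In each comparison 1 of the 3 was of RRC1 itself, the mutated gene. Of all listed features, 25.9% were called higher in the dark and 35.9% in red light. AFC1 and AFC2 are kinases of the LAMMER family, which phosphorylate SR proteins. The AFC1 intron of the 5′ UTR was retained at 100, 100 and 83.3% in rrc1-3, against 54.2, 50 and 43.1% in Col-0 in the dark (edgeR adjusted p = 0.00111). In red light it was at 86.7, 66.7 and 100% in rrc1-3, against 50, 56.3 and 46.2% in Col-0 (edgeR adjusted p = 0.0357). Only 27.7 and 26.8 reads per library lay behind these shares, and the red light call was lost under 7 alternatives, with adjusted p from 0.0521 (without Col-0 library 2) to 0.136 (without rrc1-3 library 1). These include every library left out except rrc1-3 library 2. Spliced reads numbered 0 to 2 per rrc1-3 library and 13 to 33 per Col-0 library in the dark. The authors' deposited change in reads of the AFC1 intron body went the other way, at a log2 change of -1.36 in the dark and -1.59 in red light. The high share in rrc1-3 thus went with few spliced reads and not with more reads in the intron. In the dark AFC2 intron 11 had 9.32 ± 1.04% in rrc1-3, against 5.75 ± 0.70% in Col-0 (SD, n = 3 each; edgeR adjusted p = 0.00487). RRC1 itself held a short intron, intron 14 of 16, which is not the one of the label check. It was retained at 19.2, 19.5 and 17.8% in rrc1-3, against 8.02, 8.66 and 8.14% in Col-0 in the dark. In red light the values were 18.3, 23.1 and 24.1% in rrc1-3, against 4.69, 9.80 and 3.91% in Col-0, and both rises were called (edgeR adjusted p = 4.77e-04 and 8.37e-05). Since rrc1-3 is a mutant allele of RRC1, an effect of the mutation on this transcript cannot be told apart from other changes in splicing. U2AF65b, the large subunit of the factor that binds the tract before the 3′ splice site, had its 68 nt intron 10 at 7.91, 8.03 and 7.76% in rrc1-3, against 5.05, 2.87 and 2.26% in Col-0, both in red light (edgeR adjusted p = 0.00163).

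In genes of chlorophyll synthesis, short introns were listed in the dark and mostly lower in rrc1-3. Of 23 genes considered, 5 held 7 such introns, and 6 of the 7 fell and were called, beside 28% of all listed features called lower in the dark. PORB and PORC are the enzymes that reduce protochlorophyllide in light. PORB intron 2 was retained at 3.39, 3.57 and 3.82% in rrc1-3, against 6.88, 7.89 and 6.17% in Col-0, on a mean of 6391 reads. The groups were apart and the log2 odds fell by 1.02 ± 0.16 (SE; edgeR adjusted p = 8.89e-06). The 3 short introns of PORC were at 3.51 ± 0.96, 4 ± 0.45 and 5.05 ± 1.13% in rrc1-3, against 7.15 ± 2.79, 10.5 ± 3.75 and 11.6 ± 4.02% in Col-0 (SD, n = 3 each; edgeR adjusted p = 0.0223, 0.00434 and 0.0149). CHLD, a subunit of magnesium chelatase, and CHLG, chlorophyll synthase, were at 3.69 ± 0.52 and 2.88 ± 0.69% in rrc1-3, against 6.81 ± 2.15 and 6.75 ± 4.098% in Col-0 (edgeR adjusted p = 0.0154 and 0.0197). The libraries of CHLG and of PORC intron 2 overlapped between the genotypes. HEMB1, the enzyme that makes porphobilinogen, was at 15.6 ± 3.105% in rrc1-3 and 10.4 ± 2.01% in Col-0 and was not called (edgeR adjusted p = 0.117). In the authors' deposited table PORB, PORC and CHLG were higher in rrc1-3 by 2.11, 1.74 and 1.61 on the log2 scale, HEMB1 was higher by 0.68, and the part of this in the retention was not tested. The calls of CHLD, CHLG and PORC intron 2 were lost with DESeq2 (adjusted p = 0.0595, 0.0566 and 0.0661) and with the smaller boundary (adjusted p = 0.0719, 0.154 and 0.205), which also ended that of PORC intron 4 (adjusted p = 0.0543), and that of CHLD was lost with own totals (adjusted p = 0.0519). Without Col-0 library 2 those of CHLD, CHLG and PORC intron 2 were lost (adjusted p = 0.13, 0.161 and 0.0525), and without Col-0 library 1 those of PORC introns 2 and 4 (adjusted p = 0.139 and 0.123). The call of CHLG was also lost without Col-0 library 3 (adjusted p = 0.0994), those of CHLD and CHLG without rrc1-3 library 3 (adjusted p = 0.0545 and 0.0764), and that of PORC intron 2 without rrc1-3 library 2 (adjusted p = 0.0729). For the PORC intron at 4 ± 0.45% in rrc1-3, no alternative was examined.

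Light signalling and clock genes held few listed short introns. DET1 represses light responses in darkness. In the dark its introns 7 and 8, both of 72 nt, were at 2.10 ± 0.67 and 4.27 ± 0.30% in rrc1-3, against 6.29 ± 2.74 and 8 ± 1.96% in Col-0 (SD, n = 3 each; edgeR adjusted p = 0.0243 and 0.0457). In red light its intron 1 was retained at 20.3, 19.5 and 24.5% in rrc1-3, against 8.63, 11.9 and 10.5% in Col-0 (edgeR adjusted p = 0.0029). These opposite directions came from different introns of 1 gene in different conditions. Intron 1 was not listed in the dark, and introns 7 and 8 were not listed in red light. The 2 calls in the dark were lost with DESeq2 (adjusted p = 0.0639 and 0.118). That of intron 7 was also lost without rrc1-3 library 1 or Col-0 library 3 (adjusted p = 0.0618 and 0.145), and that of intron 8 without any of 5 libraries, all but Col-0 library 1 (adjusted p = 0.0688 to 0.16), under both other scalings (adjusted p = 0.0923 and 0.102) and with the smaller boundary (adjusted p = 0.254). FHY1, which brings phytochrome A into the nucleus, rose to 14.6 ± 1.83% in rrc1-3, against 9.29 ± 1.87% in Col-0, in the dark (edgeR adjusted p = 0.00317). PIF5, a phytochrome-interacting factor, had 11.3 ± 1.86% in rrc1-3, against 17.4 ± 6.33% in Col-0, and was not called (edgeR adjusted p = 0.0984). Of 28 clock genes, TIC and XCT held 3 short introns listed in the dark, all lower in rrc1-3 and called, and 1 of XCT was also lower and called in red light. Of all listed features, 28% were called lower in the dark and 21% in red light. TIC intron 10 was at 3.79 ± 0.87% in rrc1-3 and 6.94 ± 1.37% in Col-0, and XCT intron 6 at 6.68 ± 1.91% and 13.7 ± 2.14% (SD, n = 3 each; edgeR adjusted p = 0.00248 and 0.00546). The red light call of XCT was lost under 6 alternatives, with adjusted p from 0.0869 (without rrc1-3 library 3) to 0.221 (without Col-0 library 1), also without rrc1-3 library 1 or Col-0 library 2 (adjusted p = 0.108 and 0.115). In the dark that of XCT intron 2 was lost without Col-0 library 3 (adjusted p = 0.0632).

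Genes named as ribosomal proteins gave 2, 3 and 1 listed short introns in the dark, in red light and in the light response, all of them higher and 1 called in each table. These genes were picked by the words of the annotation name alone. For AT3G46210 in the dark the name gives only a domain, and for AT4G26060 in red light only a family, and neither was called. Of all listed features, 47.7, 59.5 and 73.1% were higher in these comparisons, and 25.9, 35.9 and 63.5% were called higher. RPL15 intron 1 rose to 7.70 ± 1.26% in red light, against 4.23 ± 0.68% in the dark, in rrc1-3 (SD, n = 3 each; edgeR adjusted p = 0.00116), a call lost with TMM scaling (adjusted p = 0.677) and with own totals (adjusted p = 0.0556). The other 2 calls were not firm either. In the dark AT3G26360, of the ribosomal protein S21 family, was at 25.9 ± 3.02% in rrc1-3, against 18.5 ± 3.13% in Col-0 (SD, n = 3 each; edgeR adjusted p = 0.0445), a call lost with the smaller boundary and DESeq2 (adjusted p = 0.281 and 0.137), without rrc1-3 library 2 or 3 (adjusted p = 0.0952 and 0.105) and without Col-0 library 1 or 3 (adjusted p = 0.156 and 0.0977). In red light AT3G16080, a zinc-binding ribosomal protein, was at 11.96 ± 2.96% in rrc1-3, against 6.81 ± 1.54% in Col-0 (edgeR adjusted p = 0.0078), a call lost with own totals (adjusted p = 0.062), with the smaller boundary (adjusted p = 0.287) and without rrc1-3 library 2 (adjusted p = 0.058).

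Of the short introns, 181 were listed in both genotype comparisons, which share no libraries. They were 22.26% of the dark list and 22.18% of the red light list, smaller shares than the 38.05 and 39.58% of all listed features. Of these, 169 (93.37%) had the same direction, 93 higher and 76 lower in rrc1-3 in both conditions, beside 93.6% of all features listed in both. The test called 104 of the 169 (61.5%) in both tables, beside 49.7% of all features listed in both with the same direction. The median difference of the 93 was 7.57 points in the dark and 7.44 points in red light, and that of the 76 was -7.34 and -7.17 points. The other 12 had opposite directions, 4 of them higher in the dark and lower in red light. Only AT5G37478, a gene of the TPX2 family of microtubule proteins, was called in both of its opposite directions. Its intron was retained at 5, 17.7 and 22.2% in rrc1-3 in the dark, with no boundary read beside 29 spliced reads in the 3 Col-0 libraries, which allows a share of up to 10.3% (3 counts over the group, counting error only). In red light it was at 6.12, 4.13 and 1.85% in rrc1-3, against 33.3, 27.3 and 100% in Col-0, and that call was lost with the smaller boundary (adjusted p = 0.0605). No alternative was examined for its dark call (edgeR adjusted p = 0.0331). The AT5G37478 intron was chosen after its values were seen.

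**Figure D2:**
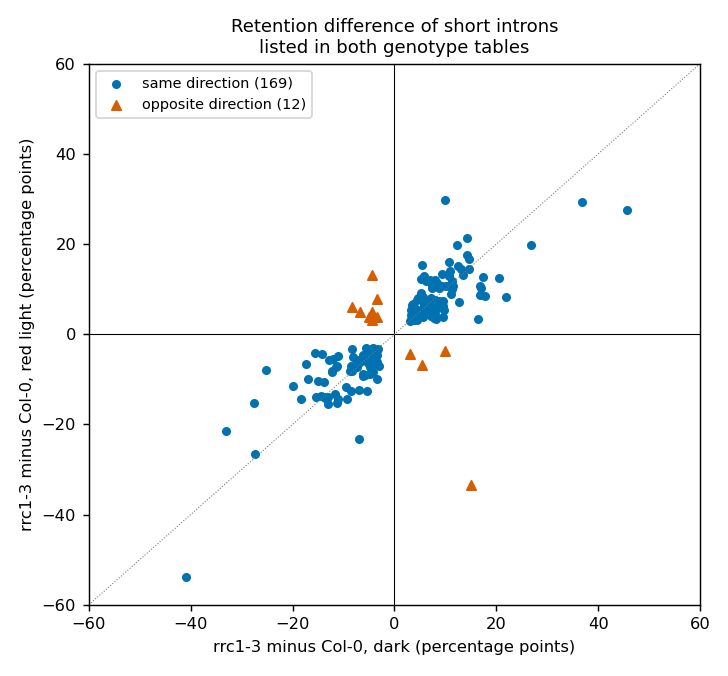
Difference in retention between rrc1-3 and Col-0 in percentage points, in the dark (horizontal axis) and in red light (vertical axis), for the 181 short introns listed in both comparisons; the dotted line marks equal differences. The 169 introns with the same direction fill the lower left and upper right, and 12 lie in the 2 other fields.

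Within rrc1-3, most short introns of the light response were retained more in red light than in the dark. Of 193 introns, 156 were higher and 37 lower in red light, which is 80.8% higher beside 73.1% of all listed features. The test called 180 of them, beside 86.4% of all listed features, with 146 higher, beside 63.5%, and 34 lower, beside 22.9%. The libraries did not overlap for 175, beside 85.6%, with 143 higher, beside 62.9%, and 32 lower, beside 22.8%. A difference of at least 10 points was seen in 62 introns (45 higher, 17 lower), beside 30.4%. The number of higher calls depended on the scaling. TMM scaling, which took the median log2 change of all listed features to 0.10, as against 0.88, left 39 higher and 36 lower calls, and own totals gave 137 calls, of which 73.7% were higher, at a median of 0.43. Above the median of 0.88 lay 128 of the 193 introns (66.3%). The median retention of the 193 introns was 10.1 to 10.8% in the red light libraries and 5.79 to 6.64% in the dark libraries.

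ARR11 introns 1 and 2 had the largest rises here too. Intron 2 was at 66.5, 73.2 and 76.7% in red light, against 18.1, 20.7 and 21.9% in the dark. The red light values are those of the genotype comparison, and the dark values of rrc1-3 lie near those of Col-0 in red light. CA1, the chloroplast carbonic anhydrase, had its 68 nt intron 8 at 22.5, 25.5 and 28.1% in red light, against 4.93, 6.04 and 6.22% in the dark. On a mean of 4981 reads its log2 odds were higher by 2.46 ± 0.19 (SE; edgeR adjusted p = 9.90e-09), and the authors' deposited table lists the gene as higher by a log2 change of 2.49. GGT1, an aminotransferase of photorespiration, was at 6.61 ± 0.32% in red light and 2.48 ± 0.13% in the dark, and PDE334, a subunit of the chloroplast ATP synthase with only this intron, at 10.9 ± 0.73% and 4.02 ± 0.89% (SD, n = 3 each; edgeR adjusted p = 5.68e-06 and 4.42e-06). AT2G35130, with tetratricopeptide repeats, was at 77.9, 72.4 and 82.1% in red light, against 56.8, 38.01 and 35.3% in the dark. These 4 genes rose without overlap of the libraries and kept their calls under every alternative run.

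The falls in red light were fewer and large. PIF7, a basic helix-loop-helix factor bound by phytochrome, had its 85 nt intron 5 at 6.94, 8.50 and 6.67% in red light, against 63.6, 53.3 and 40% in the dark. The dark shares of PIF7 rest on few counts, with only 2 to 7 spliced reads per library, against 154 to 161 in red light. The log2 odds fell by 3.84 ± 0.65 (SE; edgeR adjusted p = 1.09e-04), and the authors' deposited table lists the gene as higher in red light by a log2 change of 4.54. The last intron of KAT5, a peroxisomal thiolase of fatty acid breakdown, was at 2.39, 3.87 and 2.40% in red light, against 16.7, 40.7 and 39.6% in the dark, and its gene was higher by 4.37 in the authors' deposited table. AT5G57770, which the annotation names an auxin canalization protein, was at 6.12, 5.64 and 5.95% in red light, against 50, 56.3 and 63.6% in the dark. AT1G51580, an RNA-binding protein with KH domains, was at 12.6 ± 4.00% in red light and 33.3 ± 3.77% in the dark (SD, n = 3 each). CaS intron 5 fell further, to 5.05, 5.05 and 3.84% in red light, against 20, 14.4 and 11.96% in the dark. None of these 5 introns overlapped between the conditions, and all 5 calls held under every alternative run.

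**Figure D3:**
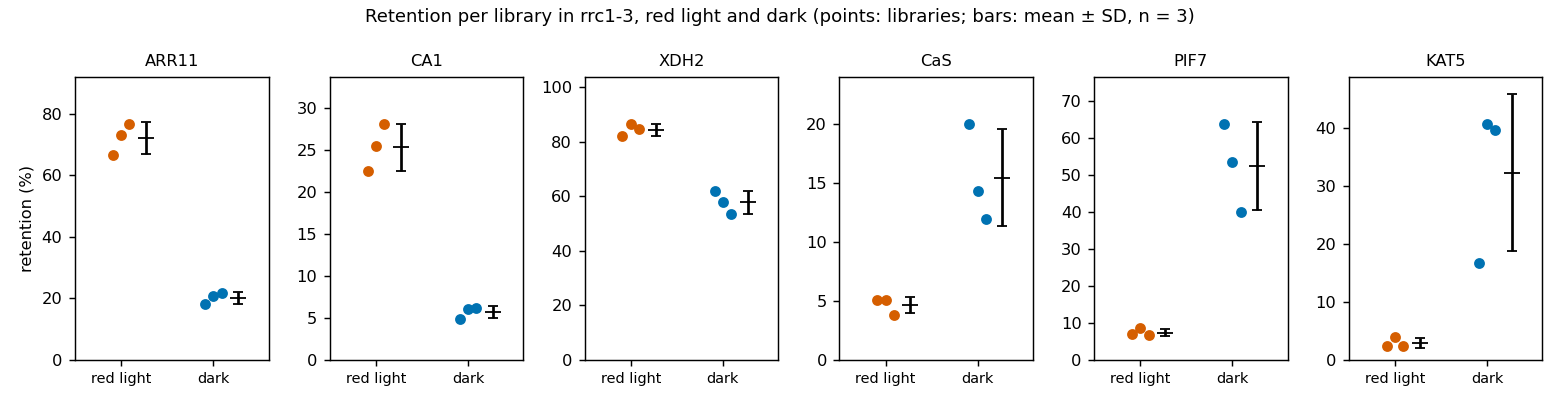
Retention (percent, vertical axis, from 0) per library in rrc1-3 for 6 named introns, red light left and dark right in each panel; points are libraries and bars the mean ± SD of 3. ARR11, CA1 and XDH2 are higher in red light, and CaS, PIF7 and KAT5 are lower.

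The light response shares the rrc1-3 libraries with both genotype comparisons, which builds in part of the following counts. Of 18 short introns also listed in the dark comparison, 6 had the same direction, beside 81 of 177 among all listed features. In 11 of the 18, retention was lower in rrc1-3 than in Col-0 in the dark and higher in red light. Of 46 also listed in the red light comparison, 43 had the same direction, beside 195 of 223. Just 4 introns were in all 3 lists, in APE2, AT1G32120, AT3G57770 and XDH2, and all 4 were higher in each. XDH2, a xanthine dehydrogenase of purine breakdown, had its 72 nt intron 4 at 81.9, 86.3 and 84.8% in rrc1-3 in red light and at 61.8, 58.0 and 53.3% in rrc1-3 in the dark. In Col-0 it was at 68.9, 70.3 and 78.1% in red light and at 57.1, 61.1 and 38.5% in the dark. AT3G57770, a protein kinase gene with 1 intron of 70 nt, had 52.8 ± 5.28% in red light and 28.8 ± 3.25% in the dark in rrc1-3, against 23.8 ± 1.88% and 19.2 ± 3.93% in Col-0 (SD, n = 3 each). Its dark call (edgeR adjusted p = 0.0455) was lost with DESeq2 (adjusted p = 0.155), with the smaller boundary (adjusted p = 0.13) and without rrc1-3 library 1 or 2 or Col-0 library 1 or 3 (adjusted p = 0.0964, 0.105, 0.122 and 0.134), and the call of its light response with TMM (adjusted p = 0.0558). In the dark XDH2, AT1G32120 and APE2, a phosphate translocator of the chloroplast envelope, were not called (edgeR adjusted p = 0.438, 0.284 and 0.0627), and the first 2 turned sign without Col-0 library 3 (log2 odds -0.062 and -0.007). APE2 was called in none of the 3 tables, and with own totals its sign turned in red light (-0.098) and in the light response (-0.195; -0.518 with TMM).

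A fit over all 12 libraries asked whether the genotype difference itself changed with light, for features listed in both genotype tables. None of the 181 short introns passed (edgeR, smallest adjusted p = 0.0939, AT5G37478), beside 0.0424% of all 2360 features tested, and 9 had an unadjusted p under 0.05. DESeq2 called 0 as well. In that fit, red light changed 2 of the 181 introns in Col-0, both lower (of all features, 2.29% were called, 0.932% higher and 1.36% lower), and 8 in rrc1-3, 7 higher and 1 lower (3.86% of all features, 2.5% higher and 1.36% lower). The intron of SEC1A was lower in red light in both genotypes. It had 29.3 ± 7.65% in red light against 51.3 ± 3.31% in the dark for rrc1-3, and 25.9 ± 3.26% against 48.3 ± 5.54% for Col-0 (SD, n = 3 each; edgeR adjusted p = 0.00577 and 0.00718). The other intron called in Col-0 was that of AT2G44140, and the 7 that rose in rrc1-3 were those of XDH2, AT3G57770, AT4G30310, MEE44, AT5G18850, AT1G32120 and DPE1. A call in 1 genotype and not in the other is no difference between them, and the interaction called none. Introns not listed in both genotype comparisons were not part of this fit. For these, the data used here lack Col-0 reads in at least 1 condition. They include the introns of ARR11, without Col-0 reads in the dark, and that of CaS, without Col-0 reads in red light.

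Within the plain introns, the share with higher retention was larger in the short introns than in those of 86 to under 300 nt, and larger again from 300 nt on. In the dark it was 55.4, 53.8, 53.2 and 48.3% in introns of up to 70, 71 to 75, 76 to 80 and 81 to 85 nt. The share was 46.7% at 86 to 90 nt, 39.7% in all of 86 to under 300 nt and 45.8% at 300 nt or more. In red light the 4 short classes had 56.8, 66.9, 60.7 and 63.3%, those of 86 to 90 nt 55.8%, all of 86 to under 300 nt 51.9% and the longest 63.0%. In the light response the 4 short classes had 96.3, 82.8, 80 and 75.3%, those of 86 to 90 nt 68.9%, all of 86 to under 300 nt 67.1% and the longest 80.4%. The shortest class held only 65, 74 and 27 introns, and its 95% exact binomial interval was 42.5 to 67.7% in the dark. The intervals of 81 to 85 nt and 86 to 90 nt overlapped in all 3 comparisons, with 42.7 to 53.9% and 41 to 52.5% in the dark. Just inside the limit of 85 nt, in red light AT4G23420 (83 nt) had 16.04 ± 7.33% in rrc1-3, against 32.1 ± 4.33% in Col-0 (edgeR adjusted p = 0.0295). This call held under 5 of 11 alternatives (adjusted p up to 0.0928), and in the dark the intron was not called (edgeR adjusted p = 0.0806). Its deposited log2 change of body reads in red light had the opposite sign, at 2.72. AT1G42470 (85 nt) had 6.17 ± 0.50% in rrc1-3, against 10.1 ± 0.64% in Col-0, in the dark. Just outside the limit, DIN4 (87 nt) had 16.2 ± 0.76% in rrc1-3, against 29.3 ± 1.47% in Col-0, in the dark, and GLT1 (87 nt) 4.99 ± 0.19% against 9.16 ± 0.67% in red light (SD, n = 3 each).

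**Figure D4:**
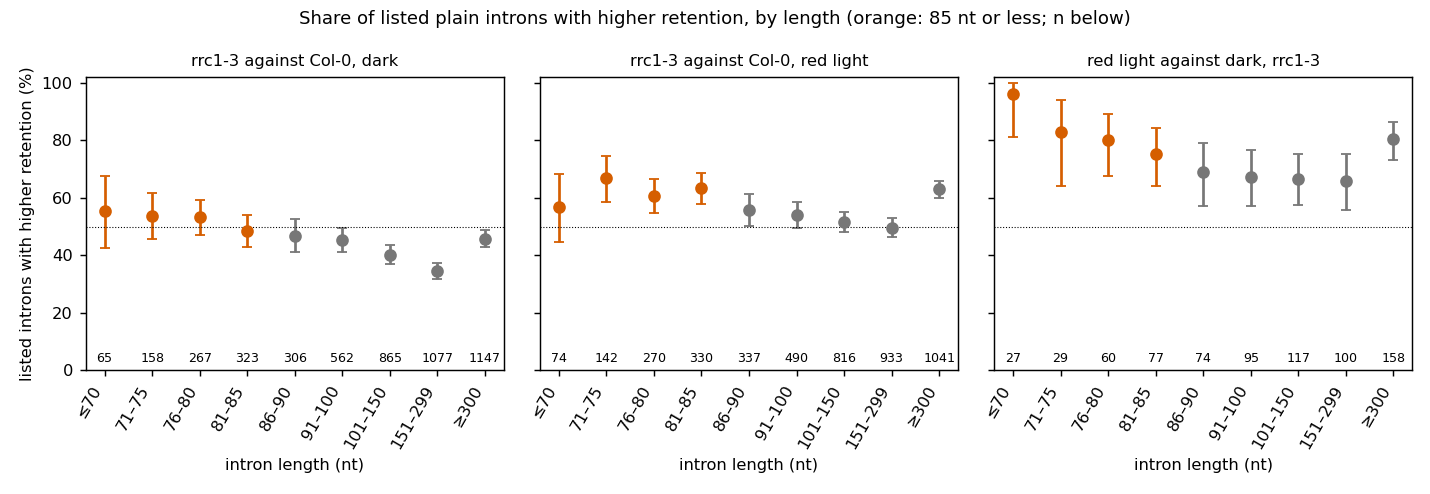
Share of listed plain introns with higher retention (percent, vertical axis) by length class in nt (horizontal axis) in the 3 comparisons; bars are 95% exact binomial intervals, which cover counting error only, and the numbers are introns per class. Introns of 85 nt or less, in orange, run from 48.3 to 55.4% in the dark, 56.8 to 66.9% in red light and 75.3 to 96.3% in the light response.

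Position in the transcript went with direction. Among short introns in the dark, 68% of the 75 first introns, 61.2% of the 129 last and 46.2% of the 586 internal ones were higher in rrc1-3. In red light the shares were 78.7% of 108, 75.4% of 134 and 55.6% of 556. In longer plain introns the same order of first over internal was seen, with 62.5% and 30.6% in the dark and 72.5% and 42.9% in red light. In the light response of rrc1-3, 93.1% of 29 first, 73% of 37 last and 79.7% of 123 internal short introns were higher in red light, so that last introns lay below internal ones there. First or only introns were 16.2% of the introns higher in rrc1-3 in the dark and 7.36% of the lower ones, 19.4% and 8.5% in red light, and 13.1% of all 31821 annotated introns of this length. The host transcripts had a median of 8 introns for the higher and 10 for the lower set in the dark, and of 7 and 11 in red light.

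**Figure D5:**
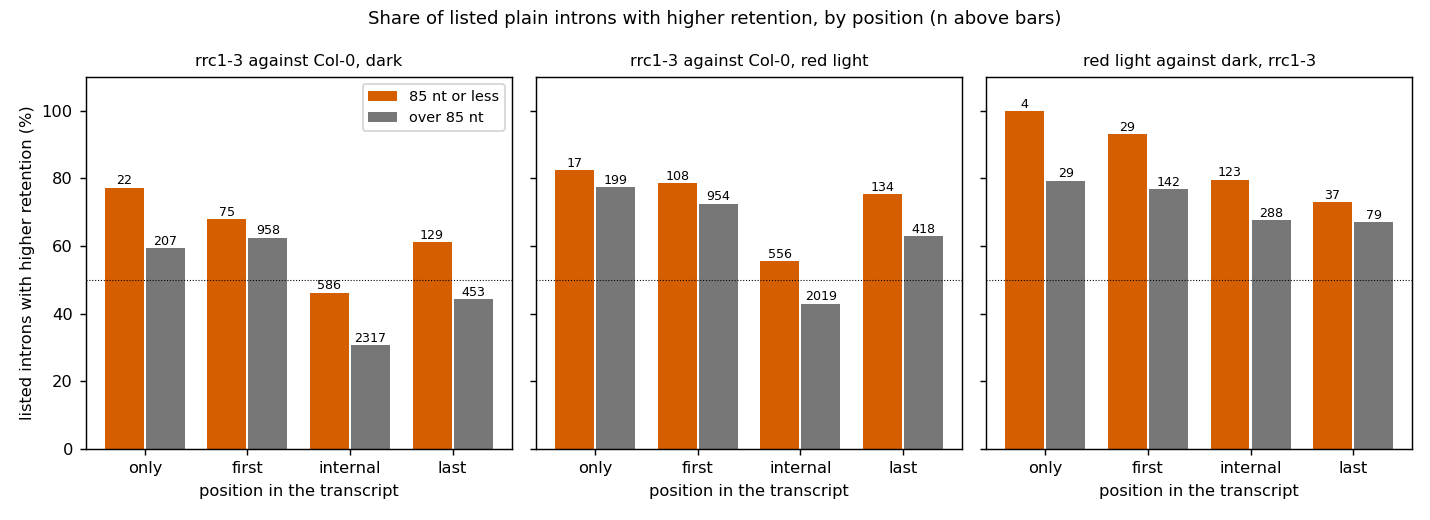
Share of listed plain introns with higher retention (percent, vertical axis, from 0) by position in the transcript, for introns of 85 nt or less (orange) and over 85 nt (grey), in the 3 comparisons; numbers above bars are introns. First introns are above internal introns in each comparison and both length classes.

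The listed short introns resembled the annotated ones of the same length in most sequence features. GT and AG ends were found in 99% of the dark and red light lists, against 98.8% of all annotated introns of 85 nt or less. The median GC content was 33.3% in both lists and 32.9% in the annotation. Among listed introns of the dark comparison, the share higher in rrc1-3 was 63.3% above a GC content of 34.7%, 49.6% between the limits and 39.1% below 30.7%, where the 2 limits split all annotated introns of this length into 3 equal parts. In red light these shares were 67.8, 57.1 and 62.2%. The first 6 bases were GTAAGT in 11% of the higher and 10.2% of the lower introns in the dark, and in 9.73% of the annotated introns. A branch point motif of the form CTNAN, searched on the transcribed strand in the last 45 bases, was present in 66.8% of the higher and 67.8% of the lower introns in the dark, and in 66.2% of the annotated ones. In red light it was in 62.5% of the higher and 65% of the lower introns, and in the light response in 57.1% and 73%, of 156 and 37 introns.

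Most listed short introns, 769 in the dark and 773 in red light, lay between coding exons of the longest coding transcript. Of these, 81.9% and 81.2% carry a stop codon in frame, as do 82.7% in the light response. A length divisible by 3 was found in 31.2, 33.4 and 28.6% of them. Both boundaries of an intron moved in the same direction in 98.28, 98.53 and 98.96% of the introns of the 3 tables. The deposited change in reads of the intron body did not always follow retention. Of the introns with higher retention in rrc1-3, 53 in the dark and 72 in red light had fewer reads in the body, while 5 and 3 of those with lower retention had more. The former include the introns of PBP1, SEC1A, HEMB1, AFC1, AT3G26360 and AT3G16080 described above. The latter include those of PIF5 and AT4G23420.

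Many genes held several listed short introns. In the dark 85 genes had 2 or more, and in 71 of them (83.5%) all had the same direction, as in 43 of 56 genes (76.8%) in red light and 23 of 25 (92%) in the light response. NOA1, a GTPase gene needed for chloroplast function, had the most in a genotype comparison, with 4 introns lower in rrc1-3 in the dark (differences of -15.6 to -5.9 points). BGLU8, a beta-glucosidase gene, had 4 introns higher by 14.2 to 24.1 points in red light than in the dark in rrc1-3. PnsL1, a subunit of the chloroplast NAD(P)H dehydrogenase complex, had 3 introns higher by 14.2 to 20.2 points in the light response and by 5.04 to 8.95 points in rrc1-3 against Col-0 in red light. In the authors' deposited tables, the host gene was listed as higher in rrc1-3 for 12.9% of introns with higher retention and 26.1% of introns with lower retention in the dark, and for 7.06% and 17.6% in red light. In the light response the gene was listed as higher in red light for 45.5% of the higher and 45.9% of the lower introns. The part of gene expression in the retention differences was not tested.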

How the data were processed

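Boundary and splice junction counts per library are as the authors deposited them, in tables with the layout of ASpli, per the file headers. Also deposited by the authors are, for each group, the pooled retention fraction, then the difference of both fractions as a score, a log2 change of intron body reads, and its p-value and FDR. The expression tables deposited by the authors, in the layout of Cuffdiff, hold 1 FPKM per group and a log2 change per gene, and only that change was used. Reads were aligned with TopHat2 to TAIR10, per the submitters' processing notes. Versions and counting settings are not given in the sources used here.

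From the counts, retention per library was computed, and deposited group fractions of all short introns were recovered within 0.0001 points. Deposited differences were turned to rrc1-3 minus Col-0 or red light minus dark. Boundary reads (mean of both, rounded up) and spliced reads were compared with edgeR 4.0.16 in R 4.3.3, with library, read type and read type by group as terms and the library total as size for both read types. This uses all 6 libraries of a table, or all 12 for the interaction. Column names of the second group of a table give the group, but their numbers run on from the first group, so which of its 3 libraries each is was assumed in column order for rrc1-3 in red light, and no test uses it. For rrc1-3 in the dark, spliced counts were identical to those of the columns numbered 1 to 3 in the light response table for 99.4% of 177 shared features. The test was also run on simulated counts in which part of the features changed, equally in both directions. That setting has no overall shift, so it cannot show how the calls depend on the scaling. Alternatives were TMM, DESeq2 1.42.0, a minimum mean of 20 reads, the smaller boundary, length limits of 80 and 90 nt, the replicate number as a block in the dark, and each library left out. Own totals for boundary and spliced reads, and TMM for the light response within each genotype over all 12 libraries, were added after the data were seen. Intron position, region and frame come from RefSeq's annotation of TAIR10.1, in the transcript with the longest coding sequence. Introns named are, with a mean of at least 20 reads, the 4 with the smallest deposited FDR and the 4 with the largest difference per direction and table, those in all 3 tables, up to 6 per gene list, 2 each just inside and just outside the length limit, and the genes with most short introns. The introns, lists and rules were chosen with earlier results of these data known. Python 3.11.15, pandas 2.3.3, scipy 1.17.1 and matplotlib 3.10.9 were used.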

Additional observations from a re-analysis of the deposited data

Results flagged for a closer look

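For 2 of the 181 short introns listed in both genotype tables, the 3 rrc1-3 libraries lay on opposite sides of the 3 Col-0 libraries in red light and in the dark. The AT5G37478 intron 4 had a genotype difference, red light minus dark, of -7.61 ± 1.75 on the log2 odds scale (SE; edgeR interaction over 12 libraries, adjusted p = 0.0939, unadjusted p = 1.84e-04), on a mean of 30.2 reads per library in the red light table. One of the introns of MEE44, a nucleotidyltransferase family gene, had a difference of 1.57 ± 0.49 in the other direction, at an adjusted p of 0.35 in edgeR. It was retained at 13.5, 12.8 and 14.96% in rrc1-3, against 8.45, 12.5 and 6.83% in Col-0, in red light, and at 4.69, 5.41 and 7.09% in rrc1-3, against 9.76, 8.57 and 11.5% in Col-0, in the dark. Neither passed the adjusted test of the difference, and no cause was tested.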

How the results depend on the processing

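With the replicate number as a block in the dark, 510 short introns were called (261 higher, 249 lower), and of 40 named comparisons 1 call was lost (AT3G57770, adjusted p = 0.0504) and 1 gained (AT3G46210, adjusted p = 0.0487). Equal numbers share only a number there: deviations from the group means of same-numbered rrc1-3 and Col-0 libraries had correlations of 0.021, 0.010 and 0.005 over 6244 features, and rrc1-3 library 3 correlated best with Col-0 library 2. No paired analysis was possible for the comparisons with red light because the rrc1-3 columns there carry running numbers and not the replicate numbers of the labels. The counts of calls held within 1.5 times of those reported under every alternative other than the following. With the smaller of the 2 boundaries, 315 short introns were called in the dark (175 higher, 140 lower) and 101 were called lower in red light. DESeq2 called 285 (148 higher, 137 lower) in the dark and 293 (201 higher, 92 lower) in red light. A length limit of 80 nt, which leaves fewer introns, gave 306 calls in the dark (165 higher, 141 lower), 311 in red light (212 higher, 99 lower) and 108 in the light response (92 higher, 16 lower), and one of 90 nt gave 54 lower calls in the light response. Own totals for boundary and spliced reads gave 192 higher calls in red light, and TMM gave 75 calls (39 higher) in the light response. Of the introns that differed by at least 10 points, 57.2% in the dark, 70.3% in red light and 72.6% in the light response were higher. With each library left out in turn, 364 to 435 introns were called in the dark (180 to 241 higher, 180 to 204 lower), 356 to 453 in red light (233 to 317 higher, 118 to 143 lower) and 167 to 177 in the light response (138 to 145 higher, 29 to 34 lower).

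In the fit over 12 libraries, the interaction called 0 introns with each library left out. For red light within Col-0, 1 intron was called higher with own totals, 1 in all (lower) with a minimum of 20 reads, 1 in all (lower) with the smaller boundary, and 1 to 4 (0 to 2 higher, 1 to 2 lower) with a library left out. Within rrc1-3 the smaller boundary left 2 calls, 2 higher and 0 lower, and leaving out a library gave 4 to 10 (3 to 9 higher, 0 to 1 lower).

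Of 81 named comparisons called, 49 were called under every alternative other than the block. Among 194 mean retention values of named introns, 118 moved by no more than 1 SD with the smaller boundary. Signs turned with the smaller boundary for AT2G17500 (log2 odds 0.491 in the dark and 1.45 in red light) and the 84 nt intron of the ECIP1 5′ UTR (0.613 in red light), and for APE2 with own totals in red light (-0.098) and in the light response (-0.195), and with TMM there (-0.518). With libraries left out, the dark log2 odds ranged from -0.009 to 0.3 for SEC1A, from -0.007 to 1.083 for AT1G32120 and from -0.062 to 0.555 for XDH2, and those of the light response from -0.873 to 0.181 for AT2G31751. The cause was not tested. The retention of introns with under about 30 reads per library rests on few counts.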
